A study of Rattus norvegicus with 16 samples.

Results

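The cytosolic ribosomal proteins are the protein part of the ribosome that works in the cytoplasm. Their genes were taken by symbol: probe sets with 1 gene symbol of the form Rpl, Rplp, Rps or Rpsa, without the kinases that share those letters. The ribosomal proteins of mitochondria have other symbols and were not taken. This gave 50 probe sets for 44 genes, among 15866 probe sets that are not controls and 10411 genes named by a probe set with 1 symbol. Of these, 33 probe sets for 30 genes belong to the large subunit and 17 probe sets for 14 genes to the small subunit. The members include the copies Rpl3l, Rpl7l1, Rps27l and Rps4y2. A further 34 probe sets carry several symbols with a ribosomal protein among them; they were not counted as members and their genes are not named.

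Lung total RNA was measured on 16 biotin-labelled microarrays, 4 per group, which the labels call biological replicates. The groups were spontaneously hypertensive (SH) rats kept in air, SH rats exposed to sulfur dioxide (SO2), Sprague Dawley (SD) rats kept in air and SD rats exposed to SO2. The SH rat is an inbred strain with high blood pressure, the SD rat is an outbred stock without it, and SO2 is an irritant gas that injures the airways. The series title presents the SH rat as a model of SO2-induced airway disease. The sources used here state no dose, no duration of exposure and neither age nor sex of the rats. The whole lung was sampled, so fewer cells of a type and less RNA per cell cannot be told apart.

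Each ribosome joins a large and a small subunit, and each subunit holds ribosomal RNA and 1 copy of nearly every ribosomal protein. The small subunit reads the messenger RNA, and the large subunit forms the peptide bond. Most of these genes begin transcription inside a run of C and T bases, so that their messenger RNAs start with a C followed by pyrimidines, the 5′ terminal oligopyrimidine (TOP) tract. Through this tract the mTOR pathway and the RNA-binding protein Larp1 set how actively the messages are translated, a step that RNA abundance does not show. Because their messages are abundant in every cell, several members, among them Rplp0 and Rpl13a, are used as reference genes when other transcripts are measured.

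The start-site sequences show this shared feature. RefSeq start sequences of build GRCr8 were found for 37 of the 44 genes, and 10 of the 37 had a C at the annotated start followed by at least 4 bases that are C or T. They are printed 5′ to 3′ on the gene's strand, 20 bases before and 20 bases from the annotated start on, because they carry the TOP feature in its plain form. Capitals mark the run that begins at the start.
Rplp0, chr12:46718371-46718410, minus strand: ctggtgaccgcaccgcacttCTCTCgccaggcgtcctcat
Rpl14, chr8:129163600-129163639, plus strand: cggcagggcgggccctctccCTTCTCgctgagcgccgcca
Rpl19, chr10:83519044-83519083, plus strand: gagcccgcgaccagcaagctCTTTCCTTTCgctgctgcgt
Rpl22, chr5:168117941-168117980, plus strand: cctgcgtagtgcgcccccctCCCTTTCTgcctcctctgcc
Rpl34, chr2:221962264-221962303, minus strand: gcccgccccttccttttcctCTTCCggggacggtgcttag
Rpl35, chr3:43165902-43165941, minus strand: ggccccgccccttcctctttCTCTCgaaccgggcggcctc
Rpl35a, chr11:81235002-81235041, minus strand: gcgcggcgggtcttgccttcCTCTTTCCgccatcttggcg
Rpl39, chrX:121195877-121195916, minus strand: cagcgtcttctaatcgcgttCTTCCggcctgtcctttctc
Rps15, chr7:10068096-10068135, minus strand: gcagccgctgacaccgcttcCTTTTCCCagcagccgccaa
Rps3a, chr2:173827023-173827062, minus strand: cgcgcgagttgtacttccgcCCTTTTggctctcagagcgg
This start was found in 27% of the members with a sequence and in 2.63% of the 33469 annotated rat starts. A run of at least 8 C or T within 20 bases of the start was present in 24 of the 37 genes (64.9%), against 15.5% of all starts. An annotated start can lie some bases off the start used in the lung, so a missing run describes only the annotated position.

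The next sequences are those of some of the members named in the comparisons below. Capitals mark the longest run of at least 8 C or T, and a sequence without capitals has no such run in this window.
Rps24, chr16:96497-96536, plus strand: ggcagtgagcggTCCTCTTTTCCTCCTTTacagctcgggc
Rps23, chr2:23814497-23814536, plus strand: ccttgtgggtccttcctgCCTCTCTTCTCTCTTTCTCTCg
Rpl21, chr12:13386134-13386173, minus strand: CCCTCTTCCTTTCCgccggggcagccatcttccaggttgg
Rpl7a, chr3:30637116-30637155, plus strand: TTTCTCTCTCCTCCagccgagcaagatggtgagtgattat
Rps28, chr7:15311314-15311353, minus strand: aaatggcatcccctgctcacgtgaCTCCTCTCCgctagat
Rpl6, chr12:41011671-41011710, minus strand: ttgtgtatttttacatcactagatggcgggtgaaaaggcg
Rpl41, chr7:1563478-1563517, minus strand: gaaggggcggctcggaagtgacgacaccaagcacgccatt
Other short motifs were counted on both strands over the 250 bases before and 50 bases after the start. CCGGAAG, the core bound by ETS-type factors, was present in 9 of 37 genes (24.3%) and in 8.75% of all starts. GGGCGG, the GC box, was present in 23 (62.2%) against 33.1%, and AAGATGGC, the core of YY1 sites, in 4 (10.8%) against 3.17%. TCTCGCGAG was present in 5 (13.5%) against 0.529%. CCGGAAG, read from the other strand, can overlap a run of C and T, and a match describes letters only.

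Signals are linear intensities, scaled by the authors' software to a trimmed mean (2% of probe sets removed at either end) of 500.099 to 500.111 on every array. Between 35 and 37 of the 50 member probe sets fell in the top 2% of each array, and so stood outside the mean used for scaling. An array labelled SD air, with 46 in its title, stands apart at a strain-dependent gene that is no member, Terf2ip. It is called SD air replicate 2, since replicates were numbered here in title order. Terf2ip gave 694 on this array, whereas SD air replicates 1, 3 and 4 gave 1982 to 2363 and SH air arrays 425 to 733. For comparisons that rest on this array, the median over all members is therefore given with and without it. Single members are given with it unless stated otherwise. Lung identity was clear: the surfactant protein genes Sftpc, Sftpb, Sftpa1 and Sftpd, the alveolar type I gene Ager and the club cell gene Scgb1a1 had mean levels at or above the 99.3 percentile of the probe sets tested. Signs of RNA quality varied, with actin 3′ to 5′ ratios from 1.29 to 3.12. Near-identical copies and processed pseudogenes of ribosomal protein genes are frequent in mammalian genomes, so every member signal may include transcripts of such copies.

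Of the 50 member probe sets, 47 (42 genes) passed the filter that left out the dimmest 30% of probe sets. The 3 dim ones were 1 of the 2 Rpl14 probe sets, at 47.2 to 132, the only Rpl30 probe set, at 26.7 to 161, and Rpl3l, at 6.6 to 39.3. Rpl3l is the striated muscle form of the core large-subunit protein Rpl3.

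The question put to these genes was whether the lung changed its ribosomal protein messages in SO2, and whether the strains differ in them. The figure of deviations by array shows the answer for the whole set, before any gene is singled out.

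**Figure D1:**
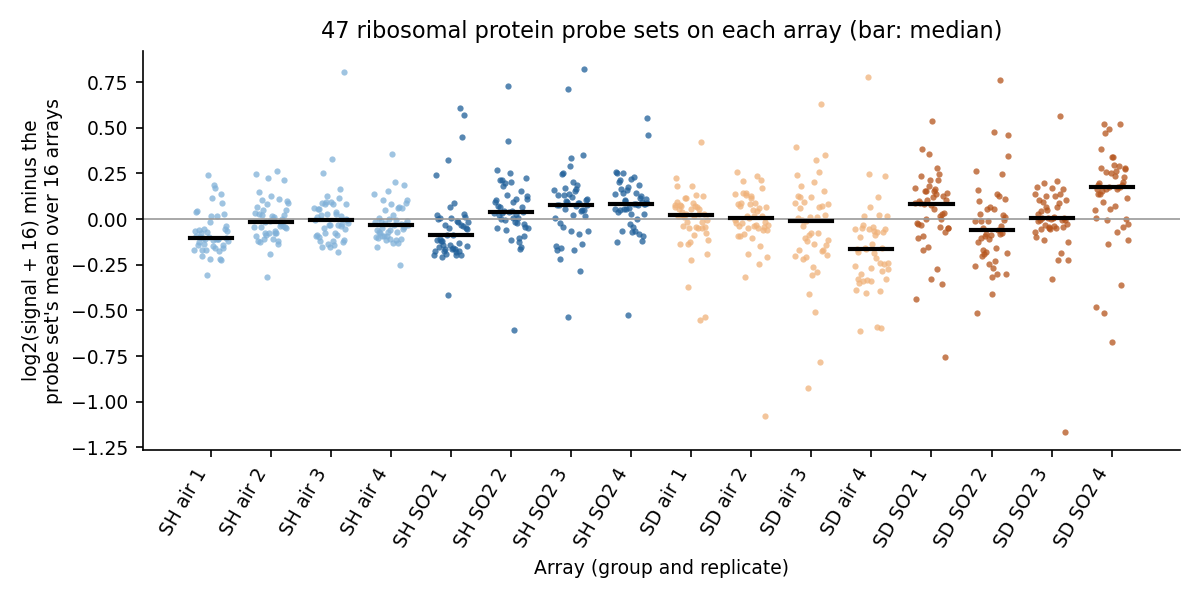
Each point is 1 of the 47 member probe sets on 1 array, as log2(signal + 16) minus the probe set's own mean over the 16 arrays; the bar is the median of the 47, and colours are the 4 groups. Medians lie between -0.17 (SD air replicate 4) and 0.18 (SD SO2 replicate 4), and the arrays of the 4 groups overlap.

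On each array the median member was taken relative to its own mean over all arrays, on the log2 scale. In SH air the 4 arrays gave -0.10, -0.014, -0.0069 and -0.033, and in SH SO2 they gave -0.086, 0.041, 0.079 and 0.082. In SD air they gave 0.020, 0.0073, -0.011 and -0.17, and in SD SO2 0.082, -0.057, 0.0041 and 0.18. In SH rats 1 SO2 array, replicate 1, lay inside the range of the air arrays, in SD rats 2 did, and SD air replicate 4 lay below every other array. The number in the title was 40 to 43 in SH air. It was 44 for SH SO2 replicate 1 and 51 to 53 for SH SO2 replicates 2 to 4. Title order and exposure therefore cannot be fully told apart in SH rats. In SD air the title numbers were 45, 46, 54 and 55, so title order and strain cannot be told apart in air either. SH SO2 replicate 1 also had the highest actin 3′ to 5′ ratio, 3.12. The group means in air were -0.039 ± 0.043 (SD, n = 4) for SH and -0.037 ± 0.087 for SD rats, and those in SO2 were 0.029 ± 0.079 and 0.051 ± 0.10. The shift between air and SO2 was of the same size as the spread between arrays of a group, 0.080.

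No member passed the test for SO2 against air in SH rats. The test was limma's moderated test across all 11106 probe sets, with Benjamini-Hochberg adjustment and a call at an adjusted p under 0.05. It called 0% of all probe sets here. An unadjusted p under 0.05 was found for 1 of 47 members, and for 4.84% of all probe sets. Of the 47 members, 38 had a higher mean in SO2, and their median log2 difference was 0.076, where the median of all probe sets was 0.017 and 53.7% of them lay above 0. With the arrays centred on their medians, which moves the median of all probe sets to -0.038, 28 of 47 members lay above 0 and their median was 0.021. Without SH SO2 replicate 4 the median was 0.049. The large and the small subunit gave like medians, 0.078 (23 of 30 probe sets above 0) and 0.074 (15 of 17).

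In SH rats Rpl41, a very short basic protein of the large subunit, had the smallest p of the members. Its signals were 7566, 7717, 7928 and 8174 in SH air, and 7985, 10489, 10778 and 8643 in SH SO2. Replicates 2, 3 and 4 in SO2 stood above all air arrays, whereas replicate 1 lay within the air range. The log2 difference was 0.26 (SE 0.10, 95% interval 0.050 to 0.47), with an adjusted p of 0.949. Rpl7a, a large-subunit protein, was the only 1 of the 47 members whose SH groups did not overlap, where 4.17% of all probe sets did not. Its signals ran from 12059 to 12222 in SH air and from 12425 to 14087 in SH SO2. The difference was 0.15 (SE 0.093) and did not pass the test (adjusted p = 0.949).

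Rps28, a small-subunit protein near the mRNA exit, had means of 8055 ± 528 (SD, n = 4) in SH air and 9021 ± 485 in SH SO2. The 2 groups overlapped by 1 array on each side, since the lowest SO2 array gave 8417 and the highest air array 8516. Its log2 difference was 0.16 (SE 0.089). Rps3, a small-subunit protein that also takes part in DNA repair, differed by 0.15 (SE 0.10), with SO2 replicate 3 at 9970 and the others between 7344 and 8038. Without that array the Rps3 difference was 0.060.

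Rpl37a had the largest difference of the members in SH rats and the widest spread among the bright ones. It is a zinc-binding protein of the large subunit. Its signals were 8752, 8671, 11795 and 10276 in SH air and 8088, 17915, 17724 and 12197 in SH SO2. In SD air they were 9819, 10454, 5682 and 18567, and in SD SO2 9718, 10717, 10859.8 and 9848. The 3 highest values thus occurred on 2 SH SO2 arrays and on 1 SD air array, and low values in each of these groups too. The difference in SH rats was 0.44 (SE 0.26, 95% interval -0.11 to 0.99), and in SD rats 0.0100 (SE 0.26). Neither passed the test. The difference in SH rats was 0.68 without SH SO2 replicate 1, and over its 23 alternatives it ran from 0.030 (title number as a covariate) to 0.68.

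In SD rats the picture was much the same in size. No member passed the test, and 0% of all probe sets did. An unadjusted p under 0.05 was found for 4 of 47 members, all higher in SO2, and for 8.24% of all probe sets. Of the 47 members, 38 had a higher mean in SO2, with a median of 0.091 against 0.017 for all probe sets. Large-subunit probe sets had a median of 0.067 (24 of 30 above 0) and small-subunit ones 0.092 (14 of 17). Without SD air replicate 4 the median was 0.053, with 30 of 47 above 0. Without SD SO2 replicate 4 it was 0.057, with 32 above 0. Leaving out the array labelled SD air replicate 2 gave 0.093, with 41 above 0. Centring the arrays gave 0.054, with 36 of 47 above 0.

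**Figure D2:**
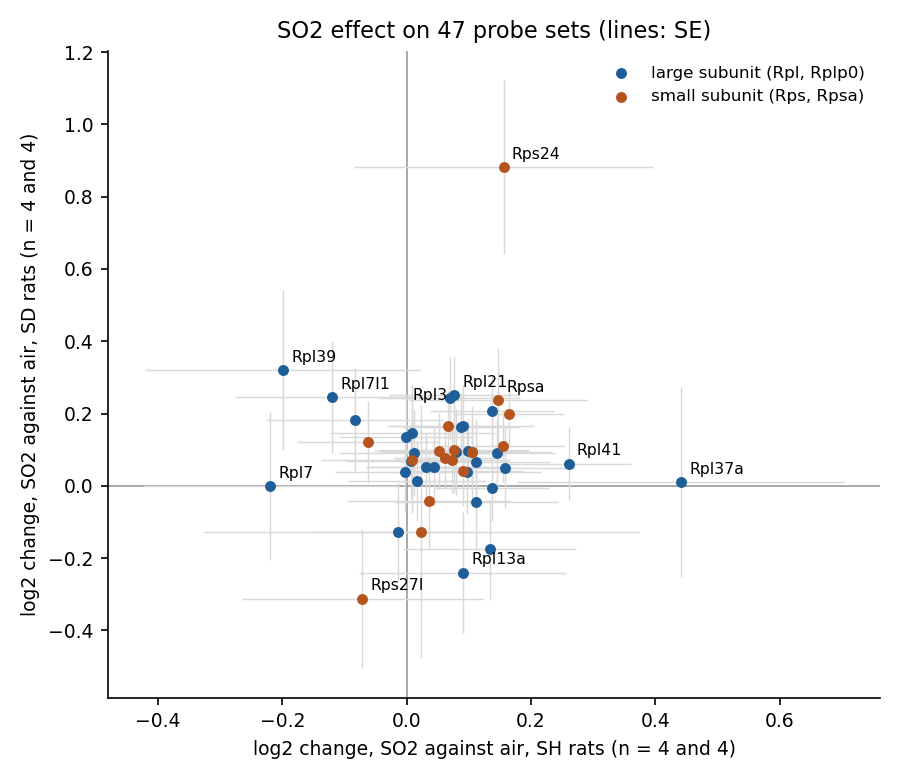
Log2 difference of SO2 against air in SH rats (x axis) and in SD rats (y axis) for the 47 member probe sets, each with lines of 1 SE; blue points are large-subunit and orange points small-subunit probe sets, and names mark the larger differences. Most points lie between 0 and 0.2 on both axes, and the dim Rps24 probe set at 0.88 in SD rats stands alone.

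The largest difference came from 1 of the 2 probe sets for Rps24, a small-subunit protein whose gene is mutated in some patients with Diamond-Blackfan anaemia. On the dim probe set 1390494_at the signals were 98.1, 135, 81.6 and 126 in SD air and 147, 268, 232 and 224 in SD SO2. The groups did not overlap, and this probe set was 1 of 2 members without overlap in SD rats, where 3.54% of all probe sets had none. In SH air the same probe set gave 125 to 172 and in SH SO2 122 to 239.5. The log2 difference in SD rats was 0.88 (SE 0.24, 95% interval 0.38 to 1.39), and it did not pass the test (adjusted p = 0.366). The bright probe set for the same gene, 1369966_a_at, did not move with it. Its signals were 8684, 8885, 8920 and 6473 in SD air and 8607, 8031, 9359 and 9627 in SD SO2, a difference of 0.12 (SE 0.11). The 2 probe sets thus differ, and the files do not say which transcripts each one reads.

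Rpl21, a large-subunit protein, was the other member without overlap. Its signals were 3167, 2970, 2716 and 2393 in SD air and 3275.4, 3275.0, 3279 and 3499 in SD SO2. The 3 lowest SO2 arrays lay within 4 units of one another, just above the highest air array. The difference was 0.25 (SE 0.11), with an adjusted p of 0.562, and in SH rats it was 0.077 (SE 0.11). Rps28 differed by 0.20 (SE 0.089) in SD rats. Rpl3, which reaches toward the peptidyl transferase centre, differed by 0.24 (SE 0.11), with SO2 replicate 4 at 16104 and the other SO2 arrays from 10893 to 12914. Rpl23 differed by 0.21 (SE 0.10), again with SO2 replicate 4 highest at 15179. Without that array the difference was 0.13 for Rpl3 and 0.125 for Rpl23.

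Averaged over the strains, 40 of 47 members lay higher in SO2, with a median of 0.069 against 0.015 for all probe sets, of which 54.3% lay above 0. No member passed the test, and 0% of all probe sets did. An unadjusted p under 0.05 held for 5 of 47 members, all higher, where 8.45% of all probe sets met it. They were Rps24 on its dim probe set, Rps28, Rpl23, Rpl41 and Rpl21. Rps28 was the most even of them, at 0.18 (SE 0.063, 95% interval 0.050 to 0.31, adjusted p = 0.436). With centred arrays 33 of 47 members lay above 0 and their median was 0.023. Leaving out the array labelled SD air replicate 2 gave a median of 0.077, with 42 above 0. No member passed either when SD air replicate 4 was left out, although 11 of all probe sets then did. For the median member the 95% interval of this averaged effect reached 0.17 to either side of the estimate, and 0.24 in a single strain.

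The 34 probe sets with several symbols, which were not members, gave a median of 0.060 in SH rats (26 above 0) and 0.059 in SD rats (20 above 0). Markers of blood and immune cells were read in the same comparisons. None of their probe sets tested had a signal of 0 on any array, and none passed the test. The 3 erythroid probe sets, for the haemoglobin gene Hbb, the haem synthesis gene Alas2 and the red cell anion exchanger Slc4a1, had a median difference of -0.43 in SH rats and -0.27 in SD rats. Of the 3, 0 lay above 0 in SH rats and 1 in SD rats. Their summed signal ran in SH rats from 8878 to 12195 with air and 6793 to 9813 with SO2, and in SD rats from 10819.5 to 17114 and 9989 to 11348. The 8 T and natural killer cell probe sets had medians of 0.070 and 0.25. Their summed signal ran in SH rats from 2189.7 to 2644 with air and 2345 to 2826 with SO2, and in SD rats from 2237 to 3349 and 2505 to 3533. The 3 macrophage probe sets, for Gpnmb, Cd68 and Lyz2, had medians of -0.37 in SH and 0.0099 in SD rats. Gpnmb differed by -0.56 (SE 0.22) and Cd68 by -0.37 (SE 0.16) in SH rats, whereas Lyz2, the brightest of them, differed by 0.14. The summed macrophage signal ran in SH rats from 34558 to 37322 with air and 32382 to 37953 with SO2, and in SD rats from 36389 to 39838 and 33249 to 47696. The 4 neutrophil probe sets had medians of 0.14 in SH and -0.099 in SD rats, and the B cell probe set for Cd79b gave 0.42 and 0.12. The part of these cells in the members' values was not tested.

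The strains did not differ detectably in their response. For the difference between the strains in the SO2 effect (SH minus SD), no member and 0% of all probe sets passed the test. An unadjusted p under 0.05 held for 1 of 47 members, where 4.65% of all probe sets met it. The median member gave -0.014, with 21 of 47 above 0. When the array labelled SD air replicate 2 was left out it gave -0.026, with 18 of 47 above 0. The dim Rps24 probe set gave -0.73 (SE 0.34, 95% interval -1.44 to -0.013). Rpl39, the very small protein at the exit tunnel of the large subunit, gave -0.52 (SE 0.31). Its 4 SD air arrays read 418, 476, 406 and 650.3 and its SD SO2 arrays 702, 457, 526 and 774, whereas SH SO2 held 2 low arrays at 371 and 373 beside 686 and 737. Rpl7l1, a relative of Rpl7 that acts in ribosome assembly, gave -0.37 (SE 0.22) on 1 probe set and -0.27 (SE 0.20) on the other. Rpl14 gave 0.31 (SE 0.20) and Rpl13a 0.33 (SE 0.24). Removal of 1 array brought these to -0.20 for the first Rpl7l1 probe set (SH SO2 replicate 2), 0.15 for Rpl14 (SD SO2 replicate 2) and 0.22 for Rpl13a (SD air replicate 3). None of these passed the test, and the 95% interval reached 0.34 to either side for the median member. Heart muscle markers went opposite ways beside this comparison: their 6 probe sets had medians of 0.22 with SO2 in SH rats and -0.50 in SD rats. Their summed signal ran in SH rats from 2281 to 3646 with air and 2486 to 4066 with SO2, and in SD rats from 2246 to 4577 and 1355 to 2648. None of these probe sets had a signal of 0 on any array, and their part in the members' values was not tested.

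Between the strains in air no member passed the test, and 0% of all probe sets did. The median member differed by 0.011 (SH minus SD), with 26 of 47 above 0. Of the 47 members, 0 had an unadjusted p under 0.05, where 6.38% of all probe sets had. Only the Rpsa probe set 1371189_x_at, 1 of 47 members, had groups without overlap, where 4.02% of all probe sets did. Rpsa is the laminin receptor precursor, a small-subunit protein. This probe set read 1467 to 1648 in SH air and 1269 to 1417 in SD air, a difference of 0.20 (SE 0.14). The other Rpsa probe sets differed by 0.049 and 0.055. With SD air replicate 2 left out, no member passed either, although 86 of all probe sets then did, and the median member was 0.037.

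In SO2, 0.81% of all probe sets differed between the strains and no member did. The median member differed by -0.0082, with 21 of 47 above 0. An unadjusted p under 0.05 held for 2 of 47 members, Rpl6 and Rps23, where 10.1% of all probe sets met it. Of the 47 members, 0 had groups without overlap, where 5.58% of all probe sets had none. Heart muscle markers were higher in SH rats here, by a median of 0.67 over 6 probe sets, of which 1 passed the test. The club cell marker Cyp2f4 was lower in SH rats (-1.26, SE 0.16) and passed limma's test (adjusted p = 0.00028). The other club cell marker, Scgb1a1, differed by -0.097 (SE 0.11) and did not pass. The part of these cells in the members' values was not tested.

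Averaged over both exposures, 1.53% of all probe sets differed between the strains and again no member. The median member differed by -0.0052, with 22 of 47 above 0. With the array labelled SD air replicate 2 left out it was 0.0097, with 27 above 0, so its sign turned; 276 of all probe sets were then called. An unadjusted p under 0.05 held for 3 of 47 members, where 11.6% of all probe sets met it. They were Rps23, Rpl6 and Rps4y2. Of the cell type markers, Cyp2f4 (-1.05, SE 0.12) and 1 of 8 alveolar type II probe sets, for Sftpa1 (0.39, SE 0.072), passed the test here. The median of the 8 was -0.018, with 2 above 0.

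**Figure D3:**
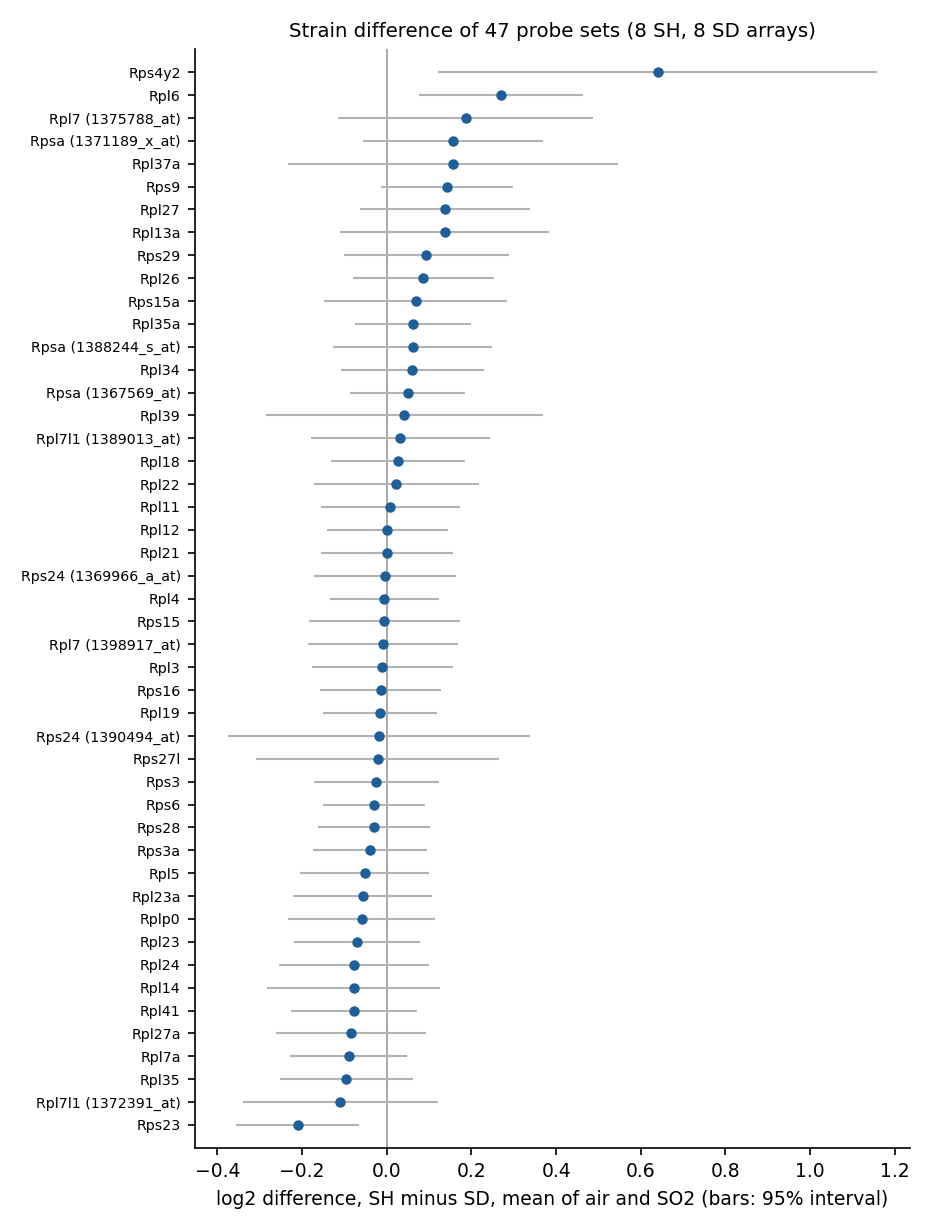
Log2 difference of SH minus SD rats, averaged over air and SO2, for each of the 47 member probe sets, with its 95% interval and sorted by size. The intervals of Rps4y2, Rpl6 and Rps23 stay on one side of 0 before adjustment, and the other 44 reach across it.

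Rpl6 is a large-subunit protein and read higher in SH rats. Its signals were 9651, 10394, 10178 and 10082 in SH air and 9579.7, 10975, 12034 and 11098 in SH SO2. In SD air they were 8172, 10337, 9053 and 7911, and in SD SO2 7604, 7656, 7591 and 12051. All but 2 SD arrays lay below every SH array, and those 2 were the array labelled SD air replicate 2 and SD SO2 replicate 4. The difference averaged over exposures was 0.27 (SE 0.093, 95% interval 0.076 to 0.46, adjusted p = 0.198), and in SO2 it was 0.35 (SE 0.13, adjusted p = 0.30). Without SD SO2 replicate 4 these became 0.35 (adjusted p = 0.0107) and 0.51 (adjusted p = 0.0221), and both then passed limma's test. Of all 11106 probe sets, 144 were then called in the averaged comparison and 58 in SO2. Over its 30 alternatives the adjusted p of the averaged difference ran from 0.0107 to 0.382, and over the 23 in SO2 from 0.0221 to 0.575.

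Rps23, a small-subunit protein at the decoding centre, read lower in SH rats. Its signals were 15642, 15332, 14837 and 15402 in SH air and 14944, 15465, 17904 and 15941 in SH SO2. In SD air they were 17526, 14190.5, 20157 and 17092, and in SD SO2 19969, 18416, 17879 and 20604. The lowest SD value came from the array labelled SD air replicate 2. SH SO2 replicate 3 was the only SH array above the lowest of the remaining SD arrays. The averaged difference was -0.21 (SE 0.069, 95% interval -0.36 to -0.065, adjusted p = 0.177). Without SD air replicate 2 it was -0.26 and passed the test (adjusted p = 0.0383), and over its 30 alternatives the adjusted p ran from 0.0383 to 0.717. In SO2, where that array enters the shared estimate of spread and neither mean, it was -0.26 (SE 0.098, adjusted p = 0.306).

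Rps4y2 is a copy of the small-subunit gene Rps4 that RefSeq places on chromosome 4 in GRCr8. Its probe set was dim, and its signals were 157, 181, 281 and 177 in SH air and 235, 143, 284 and 157 in SH SO2. In SD air they were 101, 64.3, 201 and 184, and in SD SO2 84.5, 167, 59.6 and 190.1. Every group held arrays between 157 and 201, and the 4 lowest values were all from SD rats. The averaged difference was 0.64 (SE 0.25, 95% interval 0.12 to 1.16, adjusted p = 0.270). Rps9, Rpl41 and Rpl14 differed by 0.16 (SE 0.11), -0.18 (SE 0.10) and -0.23 (SE 0.14) in air, and none passed the test. Rps9 gave 0.096 without SD air replicate 4.

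**Figure D4:**
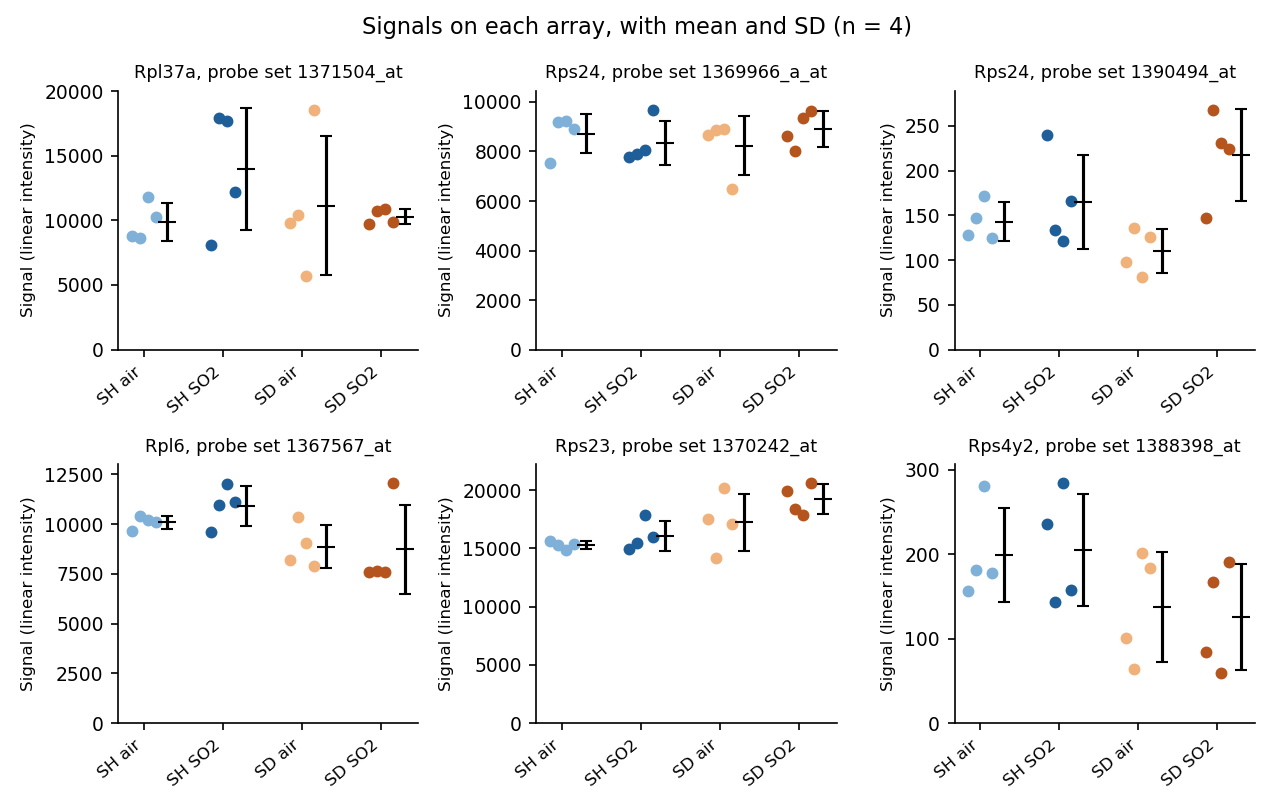
Signals (linear intensity, axes from 0) of 6 member probe sets on each of the 16 arrays; points are arrays in replicate order, and the bar beside each group is the mean with its SD (n = 4). The dim Rps24 probe set separates SD air from SD SO2 and the bright one does not, and Rpl6 shows 1 SD SO2 array at 12051 above the other 3.

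Some members were described whatever their values, and none of them passed the test for SO2 against air. Rplp0, the base of the ribosomal stalk, had means in SH rats of 7117 ± 425 (SD, n = 4) with air and 7639 ± 784 with SO2, and in SD rats of 7630.1 ± 1246 and 7816 ± 1014. The groups overlapped, and SO2 differed from air by 0.098 (SE 0.12) in SH and 0.039 (SE 0.12) in SD rats. Rpl13a, which also silences messages of inflammation as a free protein, differed by 0.090 (SE 0.17) and -0.24 (SE 0.17). Its highest SD SO2 array, at 8699, and its lowest, at 5189, spanned most of the range of all groups.

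Rps6, the small-subunit protein phosphorylated by S6 kinase, was the steadiest member. In air its signals ran from 13140.3 to 13377 in SH and 13139 to 13868 in SD rats, and in SO2 from 13231 to 14429 and 13019 to 16509.8. SO2 differed from air by 0.062 (SE 0.082) in SH and 0.077 (SE 0.082) in SD rats, with 95% intervals of -0.11 to 0.23 and -0.094 to 0.25. Rps27l, a p53-inducible copy of Rps27, read 397 to 448 (SH) and 263 to 636 (SD) in air, and 351 to 444 and 312 to 406 in SO2. Its differences were -0.071 (SE 0.19) and -0.31 (SE 0.19), the second being the lowest of the 47 members in SD rats. The 2 Rpl7 probe sets gave -0.22 (SE 0.20) and 0.011 (SE 0.12) in SH rats, the first being the lowest of the 47 members there. Rplp1, Rplp2, Rps27a, Rpl10 and Rps4x had no probe set with a single symbol here.

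How closely the replicates repeated set what could be detected. The SD within groups of the median member was 0.16 on the log2 scale, against 0.25 for all probe sets tested. Bright probe sets vary less in general: of the 39 members above the 90th percentile of level the median SD was 0.15, and of the 1072 other probe sets above it 0.18. The smallest SDs belonged to Rps6 (0.082), Rpl4 (0.089) and Rps28 (0.0996). The largest belonged to Rps4y2 (0.56), Rpl37a (0.46) and Rpl39 (0.36).

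**Figure D5:**
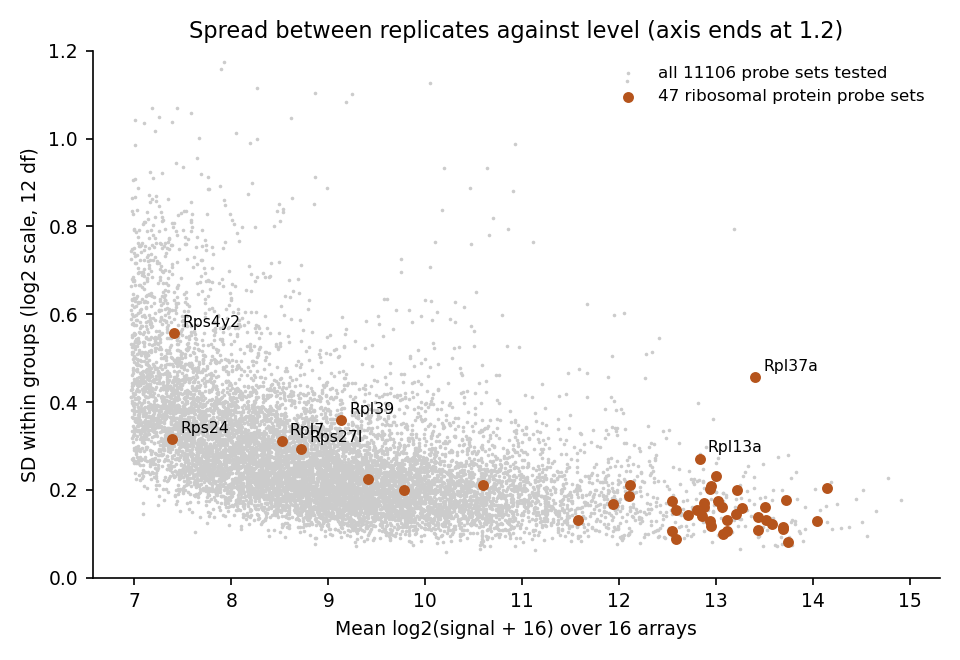
SD within groups on the log2 scale (12 residual degrees of freedom) against the mean log2(signal + 16) over 16 arrays, for all 11106 probe sets tested (grey) and the 47 member probe sets (orange); 7 probe sets with an SD above 1.2 lie beyond the axis. Most members sit at the bright end with SDs near 0.15, and Rpl37a at 0.46 stands above its neighbours.

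The members also moved together from array to array inside the groups. The median correlation between the within-group deviations of 2 bright members was 0.30, and between 2 other bright probe sets 0.036. These are descriptions over 16 arrays that the probe sets share, with the same scaling and RNA. SD air replicate 4 and SH air replicate 1 were low for many members at once, with 8 and 11 of 47 above their own mean. SH SO2 replicate 4 and SD SO2 replicate 4 were high, with 37 and 36 of 47.

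The other genes of protein synthesis gave no calls with SO2, where 0% of all probe sets passed. Between the strains 0% of all probe sets passed in air, 0.81% in SO2 and 1.53% averaged over the exposures. The list of translation factors and other TOP genes, whose messages share the pyrimidine start, held 19 probe sets, and 0 passed the test in any of the 7 comparisons. Its median with SO2 was 0.0047 in SH rats (10 of 19 above 0) and 0.046 in SD rats (15 of 19). Hnrnpa1, an RNA-binding protein, differed by 0.47 (SE 0.13, adjusted p = 0.366) in SD rats on 1 probe set. Eif3f, a subunit of the initiation factor that binds the small subunit, differed by -0.39 (SE 0.13, adjusted p = 0.470). The translation factor Eif4b differed by -0.28 (SE 0.14) in SH rats.

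Of 42 probe sets for ribosome biogenesis, the nucleolar factors that assemble the subunits, 0 passed the test in any comparison. Of all probe sets at most 1.53% passed in a comparison. The medians of the 42 with SO2 were 0.0050 in SH rats and 0.016 in SD rats. Wdr43 (0.46, SE 0.17) and Mrto4 (0.48, SE 0.22) had the smallest p in SH rats, and Ncl, nucleolin (0.31, SE 0.16), in SD rats. Of 21 probe sets for growth signals to the ribosome, 0 passed in any comparison, beside the same shares of all probe sets. In SD rats the mTOR activator Rheb differed by -0.32 (SE 0.11) and the TOP-binding protein Larp1 by 0.34 (SE 0.13), each on 1 of its probe sets and without passing.

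The ribosomal proteins of mitochondria, a separate family, held 79 probe sets with medians of 0.022 (SH) and -0.033 (SD) with SO2. Between the strains 0.81% of all probe sets passed the test in SO2 and 1.53% averaged over the exposures. Of the 79, 1 passed in both, Mrpl4. It read 520.3 to 569 in SH air and 423 to 582 in SH SO2, whereas SD rats read 598 to 1116 with air and 754 to 1072 with SO2. SH and SD arrays did not overlap within either exposure. It was lower in SH rats by a log2 difference of -0.73 in SO2 (SE 0.17, adjusted p = 0.0418).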

How the data were processed

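Lung RNA of 16 samples was measured, 4 per group, and the deposited table gives 1 linear intensity per probe set and array. The submitters' processing notes name the software GCOS without a version or algorithm. The authors' scaling was kept. Of 15923 probe sets, 57 controls were left out. Gene names came from the platform annotation (12783 probe sets with 1 symbol, 312 with several, 2771 with none here), checked through Entrez identifiers in a RefSeq table of GRCr8, which held 42 of the 44 genes and changed 0 symbols.

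Values were taken as log2(intensity + 16), which understates changes of dim probe sets. The dimmest 30%, by mean over the arrays, were removed. Differences were tested with limma 3.58.1 (R 4.3.3; lmFit, eBayes with a trend), 4 group means, 12 residual degrees of freedom and Benjamini-Hochberg adjustment over 11106 probe sets. The steps were tested on simulated data. Named members are those called, up to 5 of smallest p per comparison, and members fixed by name or spread; other lists give up to 2 of smallest p. Members and lists were chosen with earlier results of these data known. Samples were grouped by their labels; replicates are numbered in title order. The number of arrays limits the precision. Figures used matplotlib 3.10.9 in Python 3.11.15.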

Additional observations from a re-analysis of the deposited data

Results flagged for a closer look

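In 108 sets of 4 arrays (the 4 groups, for named members and for the median deviation), the array farthest from the others was checked against Dixon's critical value for 4 samples, and 7 stood apart; chance alone marks about 5% of such groups. SD SO2 replicate 4 read 12051 for Rpl6 (others 7591 to 7656) and 3499 for Rpl21 (others 3275.0 to 3279). SH air replicate 4 read 3957 for Rpl14 (others 4133 to 4148). For Rpsa, SH SO2 replicate 1 read 8519.5 on probe set 1367569_at (others 9385 to 9543). On the Rpsa probe set 1388244_s_at, SH SO2 replicate 4 read 6026 (others 4173 to 4321.5) and SD SO2 replicate 2 read 5558 (others 4005 to 4229.9). The median member on SD air replicate 4 lay at -0.17 on the log2 scale (others -0.011 to 0.020).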

How the results depend on the processing

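Under all alternatives the median member stayed above 0 for SO2 against air, from 0.021 to 0.10 in SH rats (23 alternatives), 0.053 to 0.12 in SD rats (23) and 0.023 to 0.10 averaged (30). The medians of the strain comparisons and of the interaction lay near 0 and took both signs. The number of members called was 0 throughout, with the following exceptions. It was 1 without SD SO2 replicate 4 (Rpl6, SH against SD in SO2 and averaged), where 58 and 144 of all probe sets were called. It was also 1 without SD air replicate 2 (Rps23, averaged), where 276 of all probe sets were called. With single arrays left out it thus ran from 0 to 1 in these 2 comparisons. The alternatives were offsets of 1 and 64, quantile normalization, centred arrays, no filter or 50% left out, eBayes without trend or robust, array weights, only the groups compared, 1 probe set per gene, title number or actin ratio as covariates and removal of single arrays, with the 10th percentile of signal as a covariate added after seeing the data. Using only the groups compared could not apply to the interaction and the averaged comparisons. With the replicate number as a block, members called stayed at 0 and the medians at 0.076 (SH), 0.091 (SD) and 0.069 (averaged), while 158 probe sets differed between the strains on average in place of 170. Over all alternatives that count ran from 56 (title number as a covariate) to 276 (without SD air replicate 2), and in SO2 from 50 (without SH SO2 replicate 3) to 122 in place of 90. In air it was 0 at first and reached 28 with array weights and 86 without SD air replicate 2. For SO2 against air it was also 0 at first, and reached 11 averaged and 3 in SD rats without SD air replicate 4, 4 averaged with array weights and 1 in SH rats without SH SO2 replicate 4, none of them members. The replicate numbers were given here in title order and the titles name no pairs, so the rats were not taken as paired. Of 24 pairs of same-numbered arrays, 4 correlated above 0.1, from -0.43 to 0.15. This value and the block above describe only that numbering and cannot test a pairing. With 4 arrays per group the precision is limited, and the intervals given are those before adjustment. They are not a limit of detection, since effects larger than the reach of their interval could also fail the adjusted test. The dim Rps24 probe set in SD rats was such a case, with a difference of 0.88 that limma's test did not call (adjusted p = 0.366).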

Other observations

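Rpl37a, whose spread was the largest among bright members, was set against 4 array measures, as was the median member, which makes 8 relations over 16 arrays. Against the GAPDH 3′ to 5′ ratio, Rpl37a gave Pearson's r = -0.56 (permutation p = 0.0248, adjusted p = 0.141) and Spearman's rho = -0.43 (permutation p = 0.0971, adjusted p = 0.389). Without the 2 arrays farthest from the median, SD air replicate 3 and SH SO2 replicate 1, r was -0.19. Over deviations from the group means it was -0.73. Against the 5S rRNA signal, Rpl37a gave r = -0.54 (permutation p = 0.0353, adjusted p = 0.141) and rho = -0.52 (permutation p = 0.0416, adjusted p = 0.333), and r = -0.23 without SD air replicate 4 and SH SO2 replicate 1. Over deviations from the group means it was -0.75. None of the 8 relations passed after Benjamini-Hochberg adjustment.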
